A study of Homo sapiens with 26 samples.

Results

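Box C/D small nucleolar RNAs were followed in RNA sequencing of KELLY, a cell line derived from a human neuroblastoma that carries extra copies of MYCN. The genes were taken as all symbols that begin with SNORD and a number and that held at least 10 counts summed over the 26 libraries, which left 12 of 279 such symbols among 26485 genes. These are SNORD3A, SNORD3B-1, SNORD3B-2, SNORD3C, SNORD10, SNORD15A, SNORD15B, SNORD17, SNORD22, SNORD94, SNORD97 and SNORD118. The genes were thus chosen by their summed counts, so that how abundant they are is no finding in itself. A further 18 symbols held some counts but fewer than 10, and 249 were at 0 in every library. Just inside the threshold were SNORD118, with 75.8 counts in all, and SNORD15A with 139. Just outside were SNORD3D with 5.79 counts, all in xenografts, and SNORD13, SNORD76 and SNORD89 with 3 counts each.

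Culture libraries came from 3 KELLY lines that carried a doxycycline-inducible lentiviral vector, either empty (EV) or with a hairpin directed against RUNX1T1 (labelled sh4 or shAMB). Each line was treated for 72 h with doxycycline or with DMSO, in 3 replicates per group and 18 libraries in total, so that the EV controls carried the vector and received the drug as well. The other 8 libraries came from KELLY tumours grown under the skin of immunodeficient mice. The 4 labelled control had received control food, and the 4 labelled KO had received food containing doxycycline, although the cells carry an inducible hairpin rather than a deletion. Which hairpin the tumours carried is not in the labels. The paper states that its KELLY xenografts carried the hairpin based on an Ambion sequence, and no label equates that hairpin with shAMB. No label ties replicates to separate cultures, so that p-values measure only the spread between these libraries.

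Box C/D RNAs are short, stable RNAs of the nucleolus and Cajal body, mostly cut from introns of host genes. Each pairs with a target RNA and guides the methyltransferase fibrillarin to a ribose of that RNA, with the conserved boxes C and D holding the proteins. A few, above all U3, are instead needed for the cutting of the ribosomal RNA precursor, and ribosome production is a known output of MYCN. The U3 copies (SNORD3A, SNORD3B-1, SNORD3B-2 and SNORD3C), U8 (SNORD118) and U22 (SNORD22) belong to that processing group. SNORD17 and the pair SNORD15A and SNORD15B guide methylation of the large ribosomal RNA, whereas SNORD10 and SNORD94 guide that of the spliceosomal U6 RNA.

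The sequences of 3 genes are given because the results turn on them: SNORD3A and SNORD17 are the best measured, and SNORD22 is the shortest and changed least. They were read from the hg38 genome at RefSeq coordinates, on the strand of the gene, with the letters TGATGA of box C and CTGA of box D in capitals where they were found.
SNORD3A (chr17:19188016-19188232, plus strand): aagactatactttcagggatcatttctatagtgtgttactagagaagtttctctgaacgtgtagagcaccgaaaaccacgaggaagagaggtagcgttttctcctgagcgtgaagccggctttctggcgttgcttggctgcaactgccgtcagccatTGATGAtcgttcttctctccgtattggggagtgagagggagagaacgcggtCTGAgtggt
SNORD17 (chr20:17962710-17962946, minus strand): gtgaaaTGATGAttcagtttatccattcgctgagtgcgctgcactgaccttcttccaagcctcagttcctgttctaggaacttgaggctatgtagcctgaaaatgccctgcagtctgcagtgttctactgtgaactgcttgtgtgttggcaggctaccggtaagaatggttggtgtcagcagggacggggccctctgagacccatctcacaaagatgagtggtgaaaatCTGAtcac
SNORD22 (chr11:62852910-62853035, minus strand): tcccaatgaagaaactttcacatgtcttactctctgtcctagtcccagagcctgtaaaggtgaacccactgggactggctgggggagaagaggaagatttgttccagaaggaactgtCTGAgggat

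In U3 the TGATGA shown started at position 158, and in SNORD17 at position 7, while no TGATGA was found in SNORD22. CTGA within 15 bases of the end occurred in 95.7% of the 255 SNORD genes that could be placed on the genome, and in 5.61% of 107 SNORA genes, the H/ACA class. TGATGA occurred in 76.9% and 3.74% of the same genes, on the RNA strand. SNORD3B-1 and SNORD3B-2 have identical sequences, and their counts were equal in all 26 libraries. Counted from the first base of U3, SNORD3A differs from them by A78C and from SNORD3C by G108A, so that reads of the copies can hardly be told apart and the level of each copy is uncertain. The SNORD3 copies have no host gene in the annotation. SNORD17 lies in SNX5, SNORD15A and SNORD15B in RPS3, SNORD97 in EIF4G2, SNORD10 in EIF4A1, SNORD94 in PTCD3, SNORD22 in the non-coding SNHG1 and SNORD118 in TMEM107. SNORD17, SNORD15B and SNORD94 overlap no exon of another gene, whereas SNORD10, SNORD15A, SNORD22, SNORD97 and SNORD118 overlap an exon of a host transcript, so that reads could be assigned to either gene.

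Length separated the measured genes from the others. All 12 were between 126 and 237 bases long, against a median of 81 bases over the 279 symbols. Of 13 SNORD genes over 120 bases, 12 reached 10 counts, and SNORD3D was the other. None of the 62 genes of 90 to 120 bases and none of the 204 shorter ones did. All 41 genes of the imprinted cluster on chromosome arm 14q were at 0, and of 83 in the imprinted cluster on 15q, 78 were at 0 and 5 held 1 or 2 counts, all in culture. The 267 SNORD genes under the threshold summed to 25 counts in culture and 7.79 in the xenografts. The same gap was seen among other small RNA genes, of which 3 of 1911 with at most 120 bases and 139 of 247 longer ones reached 10 counts. The shorter RNAs, which make up most of the family, thus held few or no counts in these libraries.

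**Figure D1:**
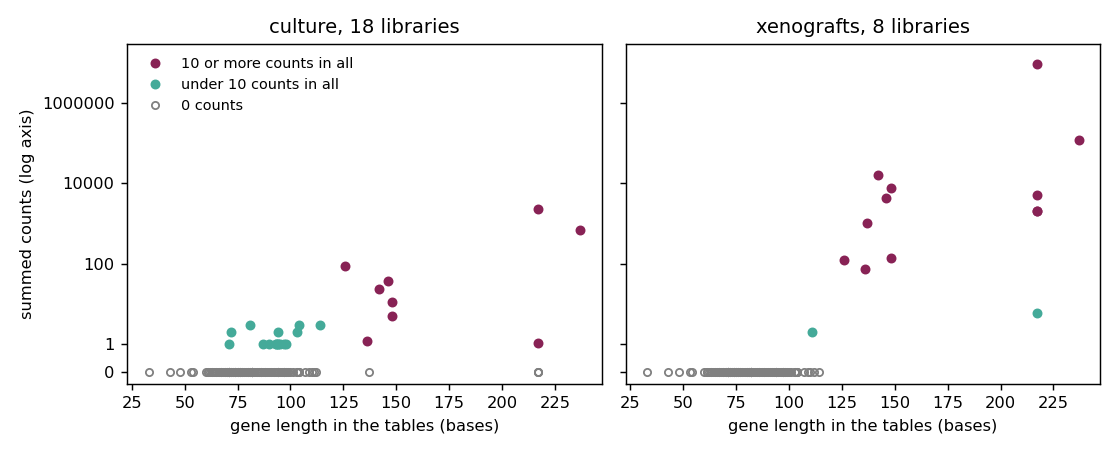
Summed counts of the 279 SNORD genes against gene length in bases, in culture (left, 18 libraries) and xenografts (right, 8 libraries), on a log axis with genes at 0 as open grey circles. Every gene with 10 or more counts was at least 126 bases long, in both sets of libraries.

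Total expected counts were 35115915 to 54736733 per library in culture and 47346063 to 62378060 in the xenografts. Levels are given as CPM, counts scaled to the library's total without small RNA genes, and 3 counts in a library correspond to 0.0556 to 0.0864 CPM in culture and 0.0536 to 0.0776 in the xenografts. All 8 neuroblastoma markers, MYCN among them, were at 1 CPM or more in both sets. RUNX1T1 RNA, the target of the hairpins, did not fall past the threshold with doxycycline in any line or in the tumours. Its log2 difference between doxycycline and DMSO was −0.16 (edgeR adjusted p 0.627) in the EV line, −0.06 (adjusted p 0.354) in sh4 and 0.17 (adjusted p 0.00983) in shAMB, the last below the median of 0.21 over all genes and at −0.02 with RLE scaling. In the xenografts labelled KO it was −0.12 (adjusted p 0.554), and groups are therefore named by their labels. These are RNA values, and protein was not measured in these libraries. The paper reports decreased RUNX1T1 after doxycycline in KELLY cells with each of its hairpins. It also reports loss of RUNX1T1 by immunostaining in KELLY tumours.

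The xenograft libraries held far more box C/D RNA than the culture libraries. The 12 genes together were at 1.84 to 9.16 CPM in culture (median 3.33) and at 10600 to 47150 in xenografts (median 23930). In culture they were 0.000183% to 0.000903% of all counts, and in xenografts 0.965% to 4.10%. SNORD3A made up 37.8% to 90.1% of the counts of the 12 genes in culture and 96.1% to 98.7% in xenografts. The other 8 genes that are not U3 copies summed to 0.695 to 1.47 CPM in culture and 232 to 610 in xenografts. No culture library came near the lowest xenograft library in either sum.

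**Figure D2:**
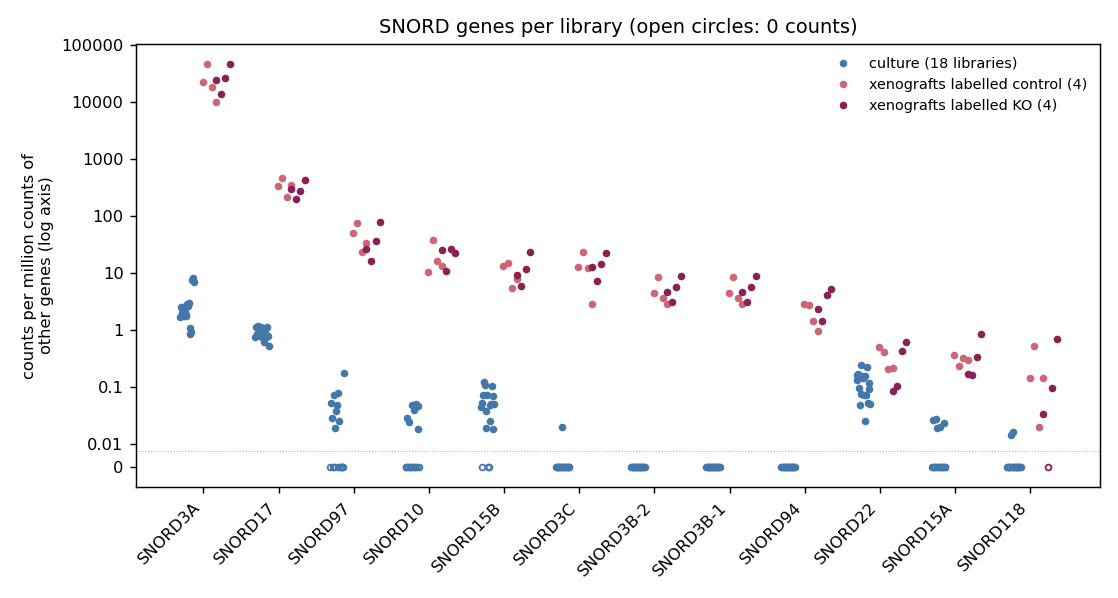
Level of each of the 12 SNORD genes in every library, in CPM on a log axis (18 culture libraries in blue, 4 xenografts labelled control and 4 labelled KO in red and purple, open circles for 0 counts). The xenograft points lie above all culture points for 10 genes and overlap them for SNORD22 and SNORD118.

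SNORD3A, the main U3 gene, held 34 to 445 counts in culture libraries (median 94.0) and 566446 to 2090124 in xenografts. Its level was 0.867 to 8.25 CPM in culture, with a median of 2.23. In the control xenografts it was 22970, 46160, 18400 and 10180 CPM, and in those labelled KO 24060, 13740, 26440 and 46540. The lowest xenograft was above the highest culture library, and the xenografts spread 4.57-fold among themselves. The log2 difference was 13.41 (SE 0.256, edgeR adjusted p 8.59e-22). Of all counts given to the U3 copies, SNORD3A took 99.9% in xenografts and SNORD3C 0.0518%. In culture these shares were 99.96% and 0.0442%, the latter from 1.02 counts.

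The remaining U3 copies held few counts beside SNORD3A in both sets and were nearly absent from culture. Whether their folds differ from that of SNORD3A was not tested. SNORD3C held 1.02 counts over all 18 culture libraries and 161 to 1002 counts in each xenograft. The ratio of its pooled levels was 9901 (exact 95% interval 1776 to 391100, counting error only). SNORD3B-1 and SNORD3B-2 were at 0 in all culture libraries and at 154 to 409 counts each in xenografts, and were thus at least 73.6-fold higher there when set against 3 counts per culture library. These copies, and SNORD15A, SNORD94 and SNORD118, held under 10 counts in culture and were chosen through their xenograft counts, so their higher level there is a description without a test. SNORD10, SNORD15B, SNORD22 and SNORD97 reached 10 counts in culture but passed the filter of the fit only through their xenograft counts. Their p-values below are therefore no support by themselves.

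SNORD17 was the next most abundant per base of full gene length, at 1362 CPM per kilobase in xenografts against 120100 for SNORD3A. The implied effective length described below had a median of 64.9 bases for SNORD17 in xenografts. It was 4.76 for SNORD97 and 6.59 for SNORD10, so an order per effective base can differ. It held 21 to 58 counts in culture libraries (median 37) and 9527 to 19583 in xenografts. Its level was 343, 475, 214 and 352 CPM in control xenografts and 295, 197, 275 and 431 in those labelled KO, against 0.527 to 1.19 in culture. The sets did not overlap, and the xenografts spread 2.41-fold, less than for SNORD3A. The log2 difference was 8.47 (SE 0.149, adjusted p 1.95e-22).

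SNORD97 held 0 to 7 counts in culture, was at 0 in 9 of 18 libraries and held 785 to 3592 counts in xenografts. Its mean level was 43.1 ± 24.0 CPM in xenografts (SD, n = 8) against 0.0303 in culture, a log2 difference of 10.80 (SE 0.399, adjusted p 8.9e-16). It overlaps an exon of CTR9 on the opposite strand, and whether counting used the strand is not given in the sources used here.

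Among the guides of U6 RNA, SNORD10 held 0 to 2 counts in culture libraries and 472 to 1492 in xenografts, with a log2 difference of 10.28 (SE 0.338, adjusted p 1.06e-17). SNORD94 was at 0 in culture and held 55 to 237 counts in xenografts, at least 37.0-fold higher. Both genes were under the level of SNORD17 per kilobase of full length in xenografts, at 139 and 19.5 CPM per kilobase.

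The pair of RPS3 intron genes differed in level. SNORD15B held 0 to 5 counts in culture (median 2) and 281 to 1066 in xenografts, a log2 difference of 8.07 (SE 0.284, adjusted p 3.62e-17). SNORD15A held 5 counts in all of culture and 8 to 39 in each xenograft, with a ratio of pooled levels of 52.7 (exact 95% interval 22.02 to 165, counting error only). Per kilobase SNORD15B was at 79.4 and SNORD15A at 2.35 CPM in xenografts. The sequences of the pair were identical at 67.5% of 154 aligned positions, so that their reads differ at many positions.

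SNORD22, the U22 RNA of the small subunit pathway, changed least of the fitted genes. It was the only gene other than SNORD3A and SNORD17 with counts in all 18 culture libraries, at 1 to 9 counts (median 5), and held 4 to 28 in xenografts. In control xenografts its level was 0.509, 0.414, 0.213 and 0.216 CPM, and in those labelled KO 0.0850, 0.103, 0.429 and 0.624. Culture libraries were between 0.0258 and 0.250, so that the sets overlapped. The log2 difference was 1.45 (SE 0.344, adjusted p 0.000587), against a median of 0.14 over all genes. SNORD22 overlaps an exon of its host SNHG1, which held 4569 to 9810 counts in culture libraries. Reads of the shared bases could belong to either gene, so the small change may not be that of U22 alone.

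SNORD118, the U8 RNA needed for the large ribosomal subunit, held 1.2 counts over all of culture. Its level was 0.147, 0.538, 0.0199 and 0.145 CPM in control xenografts and 0.0342, 0, 0.0967 and 0.689 in those labelled KO. It was too low for the filter on counts and was not fitted. TMEM107, whose transcripts share bases with it, was at 2.72 CPM in culture and 47.8 in xenografts (log2 difference 3.96, SE 0.0919, adjusted p 2.39e-20), and reads of the shared bases could belong to either gene.

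Of the 12 genes, 11 were fitted, and all 11 were higher in xenografts, where 46.7% of 16392 genes tested were called higher. None was lower, with no unadjusted p under 0.05 in that direction and none by DESeq2, where 31.7% of all genes were called lower. Because 5 of the 11 were chosen through their xenograft counts, that count is no support by itself. SNORD10, SNORD15B, SNORD22 and SNORD97 also passed the filter on counts only through the xenografts. Within culture, 2 of the 12 genes passed it, SNORD3A and SNORD17. The median log2 difference of the 11 was 10.28, or 8.07 with the genes at 0 in culture set to their lower limits, beside 0.14 for all genes tested. Since most of these genes entered through high xenograft counts, this median is a description without a test. All 6 genes with 10 or more counts in culture alone were past the threshold in every alternative in which they were fitted. For those other than SNORD3A and SNORD17 this carries the same limit. SNORD22 was not fitted when the control xenografts alone were set against DMSO cultures, and the other 5 kept their direction there.

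Other RNAs without a poly(A) tail moved with this difference. RN7SK, the RNA that holds the elongation factor P-TEFb, was at 0.255 to 1.41 CPM in culture and 4778 to 9039 in xenografts, and RMRP at 0 to 0.204 and 2030 to 4640. The 108 SNORA genes summed to 1.24 to 2.53 and 1043 to 2847, and the 24 SCARNA genes to 1.74 to 7.98 and 1004 to 2865. HIST1H4C, a replication-dependent histone messenger that ends without a poly(A) tail, was at 0.0496 to 0.250 and 177 to 335. The ribosomal RNA genes differed in direction, with RNA28S5 at 6266 to 14700 in culture and 1163 to 3720 in xenografts and RNA18S5 at 533 to 1183 and 1107 to 2617. The labels give polyA RNA as the molecule and a stranded total RNA kit for every library alike. Growth in a mouse, the deposited table and any difference in preparation fall together here and cannot be told apart.

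The deposited TPM correct for length. Dividing counts by TPM gave an implied effective length of 40.4 to 52.1 bases for the 217 bases of SNORD3A in xenografts and 44.3 to 48.9 in culture. For SNORD17 it was 56.4 to 69.7 and 60.2 to 65.5 of 237 bases. For SNORD22 it was 1.20 to 1.67 (6 xenografts with a TPM above 0) and 1.59 to 2.35 of its length, so that in TPM each of its reads weighs as much as many reads of a long gene. The 12 genes held 0.0174% to 0.0599% of TPM in culture and 12.01% to 32.3% in xenografts.

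Of 8 host genes tested, 5 were lower and 3 higher in xenografts, beside 31.7% and 46.7% of all genes. SNX5, a sorting nexin that hosts SNORD17, was at 101 ± 10.3 CPM in xenografts (SD, n = 8) and 137 ± 25.6 in culture (SD, n = 18), a log2 difference of −0.42 (SE 0.0364, adjusted p 3.8e-10). EIF4A1, the helicase of translation initiation, was at −0.44, EIF4G2 at −0.40, the ribosomal protein gene RPS3 at −0.18 and SNHG1 at −0.51, and all 4 fell past the threshold. The other 3 symbols rose, of which PTCD3 (0.15) did so only with the main scaling, while TMEM107 and the readthrough gene SENP3-EIF4A1 did so under each of the 5 scalings and tools. OVOL2, whose span also holds SNORD17, was too low to be tested.

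**Figure D3:**
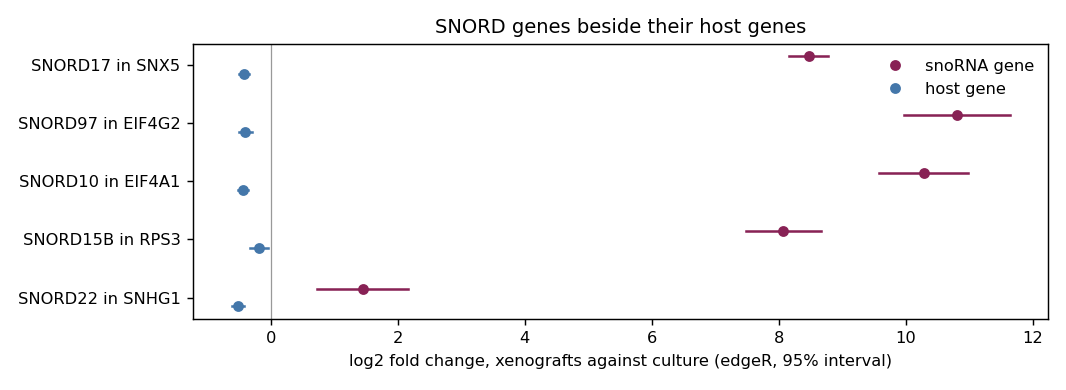
Log2 fold change between xenografts and culture for 5 SNORD genes (purple) and the gene each lies in (blue), as points with 95% intervals from edgeR. The snoRNA genes lie between 1.45 and 10.80 and these 5 hosts, the ones that fell, between −0.51 and −0.18, while PTCD3 (0.15) and TMEM107 (3.96), which rose, are not drawn.

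Genes for core and assembly proteins of box C/D particles, and for processing and transport of their RNAs, were also set beside the RNAs. The 17 genes measured are called particle proteins below. In xenografts 13 were lower, 1 was higher and 3 did not pass, beside 31.7% of all genes lower and 46.7% higher. The median log2 difference was −0.31, against 0.14 for all genes. The core proteins all fell: fibrillarin (FBL) by 0.66, NOP58 by 0.40, NOP56 by 0.32 and SNU13 by 0.19 on the log2 scale. NOLC1, a chaperone of snoRNPs in the nucleolus, fell by 0.54, and the assembly ATPase RUVBL2 rose by 0.58. Across the 5 scalings and tools, 13 to 15 were lower and RUVBL2 was the 1 that was higher.

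Human markers of other cell types overlapped between the sets. The tumours grew in mice, so such cells in them would be mouse cells, and the handling of mouse reads is not given. These sums therefore cannot show how many such cells the tumours held. The 6 endothelial markers summed to 2.10 to 4.66 CPM in culture and 1.92 to 4.97 in xenografts, and the 6 fibroblast markers to 70.2 to 138 and 50.2 to 142, with 4 and 3 of them at 1 CPM or more. For 6 immune markers the sums were 0.588 to 2.36 and 1.22 to 3.34, and the 3 globin genes were at 0 in every xenograft. Their part in the differences was not tested. In bulk RNA, fewer cells of a kind and less RNA per cell cannot be told apart.

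Between tumours labelled KO and control, none of the 11 fitted genes passed the threshold by edgeR, none had an unadjusted p under 0.05, and none passed by DESeq2, where 42.8% of 15958 genes tested were called in either direction. Log2 differences ran from −0.21 for SNORD17 to 0.70 for SNORD94, with adjusted p from 0.241 to 0.912, and the groups overlapped for every gene. SNORD94 was at 3.30 CPM in the KO group and 2.04 in control (log2 difference 0.70, SE 0.453, adjusted p 0.241). For SNORD3A the mean was 27690 ± 13720 CPM in KO and 24430 ± 15420 in control (SD, n = 4 each), and the 95% interval of the fold ran from 0.554 to 2.32. That of SNORD17 ran from 0.575 to 1.302, and folds within these intervals are not excluded. The highest library of 8 of the 12 genes, and the next after it, were control replicate 2 and KO replicate 4, in either order, and small RNA genes took 18.3% and 13.04% of their counts, against a range of 7.05% to 18.3% over all xenografts. Sums of the human markers also differed between these groups. The neuroblastoma markers summed to 3514 to 4469 CPM in control and 7965 to 10580 in KO, the fibroblast markers to 50.2 to 93.9 and 86.8 to 142, and the immune markers to 1.22 to 1.70 and 2.15 to 3.34. Their part was not tested.

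Among host genes, TMEM107 rose by 1.66 on the log2 scale in the KO group (edgeR adjusted p 0.000272), and EIF4A1 fell by 0.90, RPS3 by 0.67 and SNX5 by 0.25. TMEM107 shares bases with SNORD118, which was not fitted, and reads of these bases could belong to either gene. SNORD10, which lies in EIF4A1, was at 0.13, SNORD15B in RPS3 at 0.29 and SNORD17 in SNX5 at −0.21. The intervals of these RNAs were wide, and no difference between an RNA and its host was tested. Of the 17 particle proteins, 4 were higher and 5 lower, beside 42.8% of all genes called in either direction, with PHAX, the export adaptor, at 0.52, the assembly factor ZNHIT6 at 0.55 and FBL at −0.54. With RLE scaling 2 were higher and 6 lower. The median over all genes was 0.14 in this comparison.

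In culture, only SNORD3A and SNORD17 were high enough to be fitted. In the EV line, which tests the drug without a hairpin, SNORD3A was at 1.74, 2.53 and 2.36 CPM with DMSO and 2.01, 2.59 and 1.81 with doxycycline. The groups overlapped, and neither gene passed the threshold, where 0.121% of 14905 genes tested were called in either direction. The log2 differences were −0.04 (SE 0.248, adjusted p 0.934) for SNORD3A and 0.13 (SE 0.274, adjusted p 0.812) for SNORD17, with no unadjusted p under 0.05 and no call by DESeq2.

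In the shAMB line SNORD3A rose with doxycycline. It held 45, 34 and 35 counts with DMSO and 323, 445 and 277 with doxycycline, which is 1.10, 0.867 and 0.921 against 7.61, 8.25 and 6.95 CPM. All doxycycline libraries were above every DMSO library of the 3 lines. The log2 difference was 2.98 (SE 0.164, adjusted p 5.61e-10), a 7.87-fold rise with a 95% interval of 6.17 to 10.03, beside a median of 0.21 over all genes, and the value was 2.79 with RLE scaling. It was the 1 of 2 fitted genes called higher, where 46.0% of all genes were called higher, and neither was lower, where 22.8% were. SNORD17 was at 0.883, 1.10 and 0.763 CPM with DMSO and 1.15, 0.778 and 0.527 with doxycycline, with a log2 difference of −0.16 (SE 0.276, adjusted p 0.63).

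The sh4 line showed a smaller rise of the same gene. SNORD3A was at 2.10, 1.83 and 1.80 CPM with DMSO and 2.91, 2.65 and 2.99 with doxycycline, and the groups did not overlap. The log2 difference was 0.57 (SE 0.154, adjusted p 0.00685), where 28.1% of all genes were called higher and 14.7% lower. SNORD17 was at −0.22 (SE 0.271, adjusted p 0.546). With DMSO the 3 lines already stood apart, since SNORD3A was at most 1.10 CPM in shAMB and at least 1.74 in EV and sh4, a difference for which no test was run.

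**Figure D4:**
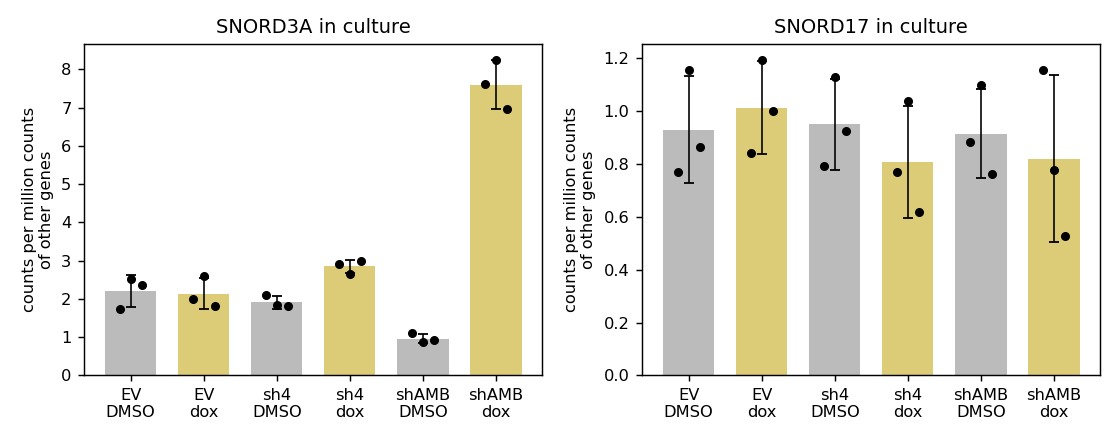
Level of SNORD3A (left) and SNORD17 (right) in the 6 culture groups, in CPM, with bars for the mean, error bars for the SD and points for the 3 libraries. SNORD3A with doxycycline in the shAMB line lies between 6.95 and 8.25, above all other libraries, while SNORD17 overlaps in all groups.

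The hairpin lines were then tested against the EV line, whose 6 libraries enter both differences. SNORD3A rose more in shAMB than in EV, by 3.02 on the log2 scale (SE 0.227, adjusted p 5.43e-08), where 48.6% of all genes had another effect in either direction. For sh4 the difference from EV was 0.61 (SE 0.220, adjusted p 0.0413), where 35.2% of all genes did. That call was lost with TMM scaling (adjusted p 0.0642), RLE scaling (0.0553), DESeq2 (0.0856) and no filter on low counts (0.0588), with log2 differences of 0.56, 0.57, 0.57 and 0.61. It was also lost without any of 10 libraries, namely EV DMSO replicates 2 and 3, EV doxycycline 1 and 3, sh4 DMSO 2 and 3, sh4 doxycycline 1 and 3, shAMB DMSO 3 or shAMB doxycycline 1, with adjusted p of 0.0117 to 0.113 over all libraries left out in turn. SNORD17 did not pass in either difference, at −0.35 (adjusted p 0.503) for sh4 and −0.28 (adjusted p 0.566) for shAMB.

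Several transcripts of RNA polymerase III and ribosomal RNA genes were also higher in the shAMB line. RN7SK held 14, 10 and 11 counts with DMSO and 55, 65 and 56 with doxycycline (log2 difference 2.12, SE 0.372, adjusted p 0.000129). RN7SL1 and RN7SL2, the RNAs of the signal recognition particle, were at 1.85 and 3.28, RPPH1, the RNA of RNase P, at 3.93 and RNA28S5 at 0.94, all past the threshold. RPPH1 held only 0, 0 and 2 counts with DMSO, and 11, 17 and 13 with doxycycline. Tested against the EV effect, RN7SK, RN7SL2 and RNA28S5 passed, whereas RN7SL1 and RPPH1 did not. Within the shAMB line SNORA73A (−0.11), SCARNA10 (0.47) and MALAT1 (−0.10) did not pass. In the sh4 line RN7SK (−0.10), RN7SL1 (−0.54), RN7SL2 (−0.15) and RNA28S5 (−0.16) did not pass either. RNA18S5 was higher in both lines, at 0.43 in shAMB (adjusted p 0.0246) and 0.41 in sh4 (adjusted p 0.0479), and neither call held with TMM or RLE scaling. These RNAs were picked after values were seen, and what their rise has to do with that of SNORD3A was not tested.

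**Figure D5:**
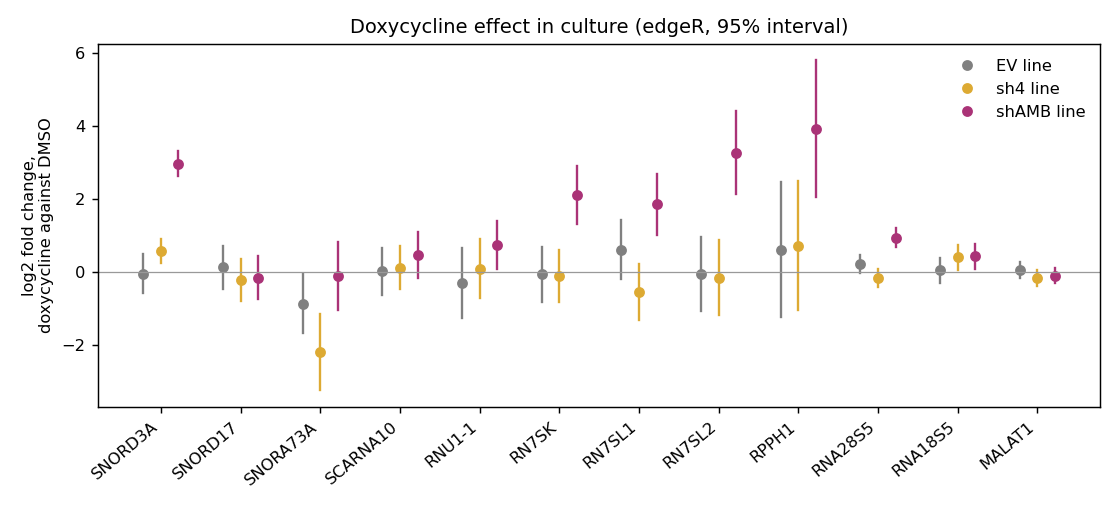
Log2 fold change between doxycycline and DMSO in the EV, sh4 and shAMB lines for SNORD3A, SNORD17 and 10 other RNAs, as points with 95% intervals from edgeR. In shAMB, SNORD3A (2.98), RN7SK (2.12), RN7SL1 (1.85), RN7SL2 (3.28), RPPH1 (3.93), RNA28S5 (0.94), RNU1-1 (0.75) and RNA18S5 (0.43) lie above 0 and SNORD17 spans it.

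Host genes were called in both directions in the hairpin lines. EIF4A1, RPS3, SNHG1 and SNX5 fell in sh4 (by 0.25, 0.52, 0.47 and 0.63 on the log2 scale) and in shAMB (by 0.80, 0.30, 0.35 and 0.35), and did so under each of the 5 scalings and tools. In sh4, EIF4G2 (0.17, adjusted p 0.0113) and PTCD3 (0.26, adjusted p 0.00111) rose, EIF4G2 not with TMM or RLE scaling or DESeq2. SNX5 thus fell in both lines. Its intronic SNORD17 passed in neither but also lay below 0 in both, and no difference between the pair was tested. TMEM107 rose by 0.91 in shAMB (adjusted p 4.82e-06) and was at −0.11 in sh4 (adjusted p 0.461). The limit of bases shared with SNORD118 applies to these values too. In sh4, 3 of 17 particle proteins were higher and 4 lower, beside 28.1% and 14.7% of all genes, with NOLC1 at −0.62 and RUVBL1 at −0.53. In shAMB, 7 were higher and 4 lower, beside 46.0% and 22.8% of all genes, with RUVBL2 at 1.58, NOP58 at 0.34 and XRN2, a trimming exonuclease, at −0.41. The split in shAMB turned with the scaling, to 3 higher and 9 lower with RLE and with DESeq2, and in sh4 it was 1 and 6 with RLE. In the EV line none of the 17 passed by edgeR or DESeq2, and 1 had an unadjusted p under 0.05.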

How the data were processed

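The authors deposited, for culture and xenografts separately, RSEM expected counts, which are estimated and can be fractional, and TPM for each gene, with a gene length in the culture table. The submitters' processing notes name STAR, SAMtools, RSEM and hg38, the annotation is not given in the sources used here, and neither is the handling of mouse reads. The column headings Neg and Pos were taken to mean DMSO and doxycycline, which no other label states. All columns were used.

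Expected counts were rounded and tested with edgeR 4.0.16 (R 4.3.3, filterByExpr, quasi-likelihood F test, two-sided) in 3 fits, of all 26 libraries, the 18 of culture and the 8 xenografts. Library sizes, also of all CPM, were totals without 2437 small RNA genes. P-values were adjusted over all genes tested (Benjamini-Hochberg), with a threshold of 0.05. SE and 95% intervals were taken back from the p-value and its degrees of freedom. Folds against groups at 0 used 3 counts per library, and intervals of pooled ratios were exact binomial (scipy 1.17.1). Molecular identifiers are not named, so intervals from counts cover counting error only. The code was tested on simulated data. Alternatives were other scalings (all totals, TMM, RLE), DESeq2 1.42.0, no filter, a replicate block, subsets of groups and each library left out. Those for host genes, particle proteins, RUNX1T1 and TMEM107 were added after the data were seen. No replicate libraries were identical, and the lowest chi-square per degree of freedom between replicates was 1.82.

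The 12 genes and all gene lists were chosen with earlier results of these data known. Named genes were the measured SNORD genes, those nearest the threshold of 10 counts, their hosts, the particle protein list and RUNX1T1. Coordinates and sequences came from RefSeq and hg38, the build in the submitters' notes, and 255 of 279 SNORD symbols were placed. 1 sequence is not reported here.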

Additional observations from a re-analysis of the deposited data

Results flagged for a closer look

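SNORD3A had another doxycycline effect in the shAMB line than in the EV line, by 3.02 on the log2 scale, and in the sh4 line than in the EV line, by 0.61. Both were tested as differences of effects with edgeR. The latter was past the threshold only by a small margin, and its call was lost with TMM, RLE, DESeq2, no filter and the replicate block.

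Within a group of 4 xenografts, 1 library stood far from the others for 2 genes. SNORD118 was at 0.689 CPM in KO replicate 4, and the host gene SNX5 was at 118.3 CPM in control replicate 1, above 106.6 to 106.8 in the other 3 control tumours. Over the 42 groups of values examined, chance alone flags about 1 in 20.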

How the results depend on the processing

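The higher level in xenografts kept its direction and its side of the threshold for the 6 SNORD genes with 10 or more counts in culture alone. This held under each alternative in which the gene was fitted, and SNORD22 was not fitted in those with control xenografts alone. SNORD10, SNORD15B, SNORD22 and SNORD97 passed the filter on counts only through the xenografts, so this is no support for them. The rise of SNORD3A in the sh4 and shAMB lines also kept its direction and its call (0.51 to 0.65 and 2.79 to 3.09 on the log2 scale). With TMM, RLE, DESeq2, no filter or the replicate block, 0 genes had another effect in sh4 than in EV, and leaving out each library gave 0 to 1. The block changed no other call among the SNORD genes fitted within culture or xenografts, and was not run for host genes, particle proteins, RUNX1T1 or TMEM107. Replicate numbers did not pair the libraries, with correlations of same-numbered deviations of −0.657 to 0.387. Values that changed sign when a library was left out were all under the threshold: SNORD3A (−0.21 to 0.07) and SNORD17 (−0.01 to 0.31) in EV, SNORD17 in shAMB (−0.47 to 0.07), and, for KO against control, SNORD10 (−0.08 to 0.69), SNORD15A (−0.45 to 0.54), SNORD15B (−0.20 to 0.53), SNORD22 (−0.65 to 0.21), SNORD3A (−0.19 to 0.69), SNORD3B-1 and SNORD3B-2 (−0.09 to 0.62), SNORD3C (−0.17 to 0.62) and SNORD97 (−0.79 to 0.15). RUNX1T1 in shAMB turned to −0.02 with RLE and with DESeq2. In TPM scaled in the same way, the 12 genes averaged 1290000 in xenografts and 342 in culture, against 26490 and 4.07 CPM from counts, since TPM divides by the short effective lengths. Scaled on shorter genes, the effective length was 51.8 (SNORD3A) and 69.9 (SNORD17) in xenografts and 49.5 and 67.0 in culture. Low counts limit the culture values, since 10 of the 12 genes held at most 9 counts in any culture library. Why shorter SNORD genes held few counts was not tested.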

Other observations

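The SCARNA genes, guide RNAs of the Cajal body, summed to 1.74 to 2.64 CPM with DMSO and 7.48 to 7.98 with doxycycline in the shAMB line, whereas the SNORA genes summed to 1.84 to 2.06 and 1.80 to 2.22. SNORA73A, an H/ACA RNA of ribosomal RNA processing, held 18, 11 and 8 counts with DMSO and 2, 2 and 3 with doxycycline in the sh4 line, a fall by 2.19 on the log2 scale (edgeR adjusted p 0.00198). In the EV line it held 15, 16 and 11 counts with DMSO and 5, 11 and 7 with doxycycline, a log2 difference of −0.86 (adjusted p 0.647, unadjusted 0.0392), and the test between both lines gave −1.32 (adjusted p 0.124), which was no call.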
